A study of Mus musculus with 4 samples.

Results

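The strongest CTCF peaks of mouse hippocampus are described here, namely the 748 autosomal peaks with a deposited score of 569 or more, out of 14974 autosomal peaks and 15109 peaks in the whole list. They were chosen by score, a measured value, so nothing below that comes from the same peak call was tested. CTCF recognises a DNA motif through its zinc fingers and acts with cohesin, the ring-shaped complex that extrudes chromatin loops until it meets bound CTCF. Sites with heavy occupancy often anchor such loops, mark borders of domains or insulate genes from enhancers, and in neurons loops of this kind organise large gene clusters. ChIP-seq, in which chromatin bound by an antibody is sequenced, was performed on hippocampus of C57/Bl mice with a Millipore antibody to CTCF, in 2 libraries. Another 2 libraries came from input chromatin of the same tissue and strain, sequenced with no antibody step, although the design text of the series speaks of 1 input. All 4 libraries carry the same tissue and strain, and no treatment, genotype, age or number of pooled animals was given in the labels used here. A single peak list was made from all libraries together, on mouse build mm9, so no value has a replicate error and the spread between mice is unknown.

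The score is the authors' own value for each peak and its scaling is not stated, so it only ranks peaks inside this list. Strong below means a score of 569 or more, weak a score under 93, the median of the list, and intermediate the scores in between. The other autosomal peaks, 14226 in number, hold the weak and intermediate ones. Distances run between peak midpoints unless edges are named. Intervals are 95% Wilson intervals of a share unless named otherwise, and cover counting error only. They treat peaks as independent, although neighbouring peaks share a region, and are therefore too narrow.

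Strong peaks made up 4.995% of autosomal peaks and 9.14% of the sequence covered by them, 0.755 of 8.25 Mb. Their scores ran from 569 to 3888 and thinned out upward, with 393 members (52.5%) at 800 or more. The median score was 822.5, with quartiles of 662 and 1150. A score of 1000 or more was reached by 260 members, of 2000 or more by 47, and of 3000 or more by 4. At the bound itself, the 3 members just inside were a peak on chromosome 4 from 107790846 to 107791403 (score 569), one on chromosome 11 from 69828547 to 69829114 (570) and one on chromosome 7 from 17479662 to 17480879 (570). The 3 peaks listed first just outside all scored 568 and lay on chromosomes 2, 3 and 4, at 30649981, 106524711 and 132312606. They were 555, 682 and 644 bp wide, against 558, 568 and 1218 bp for the 3 inside. The bound thus falls within a continuous range of scores.

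Strong CTCF peaks were 2.02 times as wide as the others at the median, and the narrowest member measured 484 bp against 344 bp for the narrowest of the others. Median width was 935 bp (order-statistic 95% interval 910 to 962 bp), with quartiles of 712 and 1194.5 bp, against 464 bp with quartiles of 395 and 580 bp for the other peaks. None of the 3795 peaks under 400 bp was strong, and only 4 of the 4748 peaks of 400 to 499 bp were. The strong share then climbed with width, from 3.07% at 500 to 599 bp to 20.6% at 800 to 999 bp and 42.9% at 1500 to 1999 bp. Even among peaks of 2000 bp or more it reached 44.1% (15 of 34, interval 28.9 to 60.5%), so the widest peaks were not all strong. Of the other peaks, 272 were at least as wide as the upper quartile of members, and their median score was 215. The widest of these, on chromosome 10 from 60803607 to 60806982, measured 3376 bp and scored 540. Score and width come from the same reads and the same call, so this relation describes the list and is no separate evidence on the sites.

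**Figure D1:**
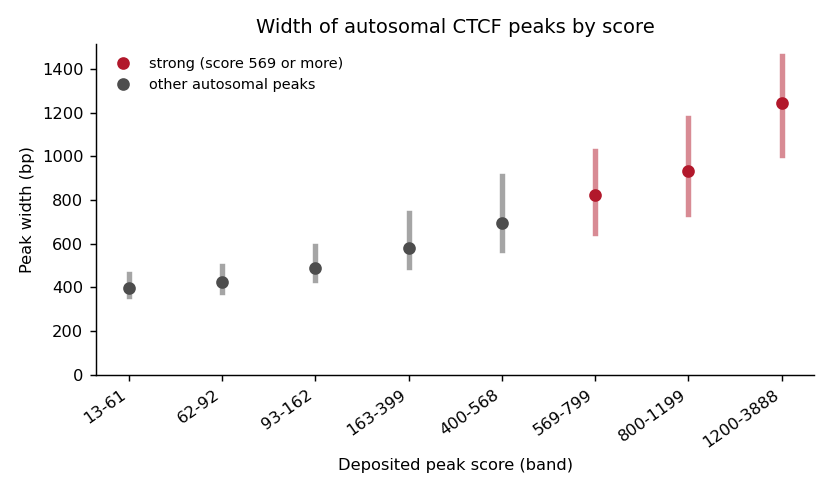
Width in bp against bands of the deposited score, for autosomal peaks. Points are medians and bars run from the lower to the upper quartile. Medians climb from 395 bp in the lowest band to 1244 bp at scores of 1200 or more, with no step at the bound of 569.

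Inside the strong class, width still varied widely at a given score. The rank correlation of score with width was 0.40 over the 748 members, against 0.53 over the other peaks, given as descriptions. The 5 widest members spanned 582 to 1725 in score. The widest, on chromosome 3 from 89047582 to 89051001, measured 3420 bp and scored 1394. Next came a peak of 3381 bp on chromosome 5 at 125747320 (score 840), one of 3240 bp on chromosome 16 at 11422441 (1725), one of 3047 bp on chromosome 15 at 84040444 (1000) and one of 2616 bp on chromosome 12 at 112931378 (582). The last of these shows a very wide peak close to the bound. At the other end, the narrowest member, on chromosome 5 from 143033206 to 143033689, was 484 bp wide and scored 778. The next narrowest, of 485 to 500 bp, were on chromosome 9 at 65044482, 65446517 and 64538827, with scores of 608, 600 and 602, and on chromosome 7 at 135380585, with a score of 699. Of these 5 narrow peaks, 3 lay on chromosome 9 within 1 Mb of each other.

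Strong peaks were found on every autosome, from 18 on chromosome 16 to 78 on chromosome 11. Chromosomes 11, 7 and 5 together held 210 members (28.1%). Strong peaks occurred at 0.314 per Mb over all spans, a span running from the first peak of a chromosome to its last. The density was highest on chromosome 11, at 0.659 per Mb (exact Poisson 95% interval 0.521 to 0.822), then on chromosome 17 at 0.530 (0.391 to 0.703) and chromosome 7 at 0.503 (0.395 to 0.630). It was lowest on chromosome 13, at 0.180 per Mb (0.112 to 0.275). As a share of the peaks on each chromosome the range was narrower. Chromosome 7 had the largest strong share, 75 of 1114 peaks or 6.73% (5.40 to 8.36%), and chromosome 4 the smallest, 46 of 1271 or 3.62% (2.72 to 4.79%). The interval held the share over all autosomes on 17 of 19 chromosomes, chromosomes 4 and 7 being the exceptions. Chromosomes 4 and 17 had nearly the same number of strong peaks, 46 and 48, but 1271 and 766 peaks in all, so that the share on chromosome 17 was 6.27%.

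**Figure D2:**
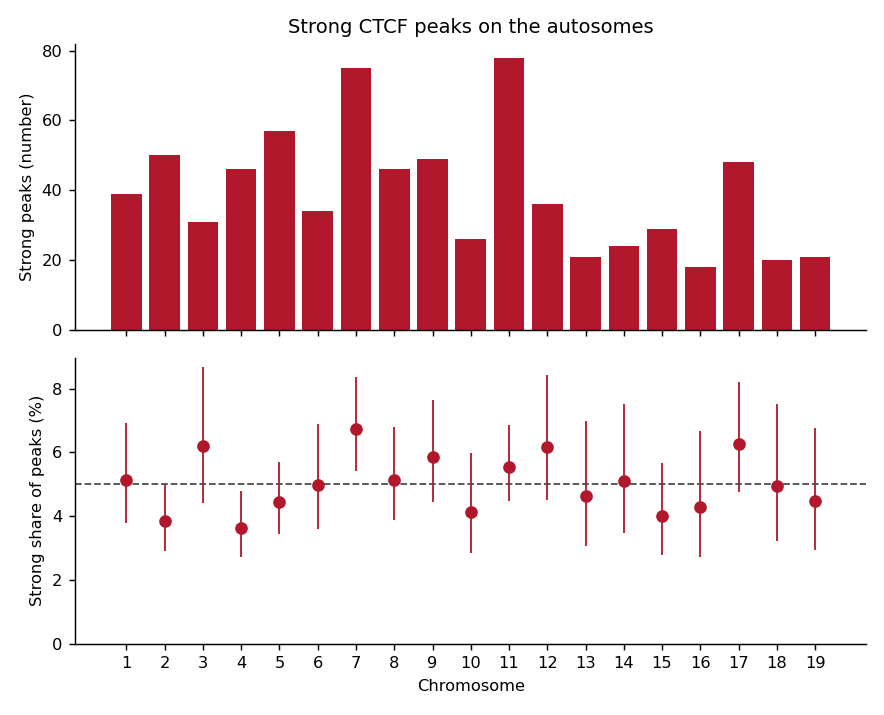
Number of strong peaks on each autosome (bars, upper panel) and their share of all peaks of that chromosome in percent (points with 95% Wilson intervals, lower panel). The dashed line is the share over all autosomes, 4.995%, and the intervals of chromosomes 4 and 7 lie off it.

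The highest-scoring member of each autosome ranged from 1720 on chromosome 15 to 3888 on chromosome 9. Those of 3000 or more lay on chromosome 9 at 121605687 (3888) and chromosome 17 at 34271498 (3868). The others at that level were on chromosome 4 at 134033251 (3590) and chromosome 7 at 117307520 (3277). On chromosome 8 it was the peak from 122842996 to 122844299 (score 2466), and on chromosome 5 the peak from 149817570 to 149819125 (2395). Chromosome 10 had its highest member from 79387839 to 79388666 (2282), only 828 bp wide. Chromosome 18 had an even narrower one, 764 bp with a score of 2251, at 36099030. The highest on chromosome 2, at 173370928, scored 2227, that on chromosome 12, at 86510195, 2048, and that on chromosome 6, at 128429611, 1898. Chromosomes 16 and 15 were led by peaks at 17921244 (1863) and 73546435 (1720). Medians of member scores were much closer between chromosomes, from 721 on chromosome 10 to 934 on chromosome 19.

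Along the chromosomes, strong peaks followed the other peaks. The distal 50% of the span, away from the centromere in mouse, held 477 of 748 strong peaks (63.8%) and 62.5% of the others, a difference of 1.31 percentage points (Newcombe 95% interval -2.29 to 4.77). The strong share was larger than that of other peaks in this part on 11 autosomes and smaller on 8. On chromosome 3, 28 of 31 strong peaks (90.3%) lay there against 70.4% of the others, and on chromosome 13 only 4 of 21 (19.05%) against 38.0%. With the span divided into 10 equal parts, numbered from the centromere, the strong share of peaks ran from 4.20% in part 3 to 6.37% in part 6. The most distal part held 124 members but a strong share of 4.22% (3.55 to 5.01%), since it also held the most peaks, 2936.

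The surroundings of strong peaks were as rich in peaks as those of the others. A median of 18 other peaks lay within 500 kb on either side in both classes, with an upper quartile of 27 for strong and 29 for other peaks. The strong share also varied little with how many peaks surrounded a peak: it was 4.95% with 0 to 4 peaks around, 4.39% with 5 to 9, 5.63% with 10 to 19, 5.15% with 20 to 39 and 4.04% with 40 to 80. In whole 1 Mb windows, grouped by their number of peaks, the share ran from 4.63% (21 to 30 peaks) to 5.93% (11 to 20 peaks). Of 2366 full windows, 484 (20.5%) held a strong peak, 1228 held only other peaks, and the strong share was 4.70% in windows with a single peak, 5.93% (5.18 to 6.77%) in windows with 11 to 20 and 4.80% in windows with 31 to 75.

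A few windows nevertheless gathered several strong peaks. The fullest, on chromosome 7 from 52000001 to 53000000, held 8 among 46 peaks (17.4%), and none of the 8 scored above 874. Its widest member, from 52714342 to 52716585, measured 2244 bp. Next was chromosome 5 from 137000001 to 138000000 with 6 among 32 peaks, the highest scoring 1276. Windows with 5 members lay on chromosome 8 from 122000001, chromosome 11 from 116000001 and from 94000001, chromosome 12 from 112000001 and chromosome 14 from 70000001. The first of these held 63 peaks in all and the last only 28. In contrast, a window on chromosome 11 from 118000001 to 119000000 held 43 peaks and no strong one, and one on chromosome 4 from 141000001 to 142000000 held 42 and none. These 2 windows without members were picked after their values were seen.

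Strong peaks lay a median of 380 kb from the nearest other strong peak, with quartiles of 120 and 1024 kb. The same distance from other peaks to their nearest strong peak was 443 kb, with quartiles of 138 and 1377 kb. Another strong peak within 100 kb was found for 166 members (22.2%, 19.4 to 25.3%) and for 19.2% of other peaks, a difference of 2.96 points (Newcombe 95% interval 0.054 to 6.14). At 1 Mb the shares were 74.5% and 68.6%. Within 20 kb they were 7.49% and 5.15%, a difference of 2.33 points (Newcombe 95% interval 0.616 to 4.47). At 10 kb or less the order was not stable. Within 10 kb it was 2.14% against 2.91%, a difference of -0.77 points (Newcombe 95% interval -1.64 to 0.56), but it was 1.60% against 1.43% within 5 kb and 3.21% against 3.06% within 10 kb between edges. By class of local density the order at 100 kb was also mixed. With 20 to 39 peaks around, 34.7% of strong and 26.4% of other peaks had a strong peak that near, but with 40 to 80 around the shares were 26.6% and 35.2%.

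Read in order along the chromosome, the peak after a strong one was strong in 49 of 748 cases (6.55%, 4.99 to 8.56%), and the peak after any other in 4.92%. Between consecutive strong peaks lay a median of 12 other peaks and 816 kb. The longest stretch free of strong peaks, on chromosome 3 from 26052517 to 85377528, measured 59.3 Mb and held 118 other peaks. A stretch on chromosome 1 from 21209455 to 72301114 measured 51.1 Mb with 140 other peaks, none scoring above 526, and one on chromosome 5 from 72559603 to 107231140 measured 34.7 Mb with 97. The most peaks in such a stretch, 141, were on chromosome 8 from 3517696 to 28238453. These stretches thus held peaks of lower score, but those on chromosomes 3, 1 and 5 held few for their length. Over all spans there were 5.96 other peaks per Mb. On chromosomes 3, 1 and 5 as wholes there were 3.09, 3.74 and 8.25 per Mb.

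Runs of strong peaks were short. With steps of at most 100 kb, 582 members stood alone, 66 runs held 2, 7 held 3, 2 held 4 and 1 held 5. The run of 5 spanned 177 kb on chromosome 3 from 88936092 to 89112610. It held 9 peaks in all, its strong peaks scored 615, 585, 824, 1394 and 643, and the fourth was the widest member of the class. A run of 4 on chromosome 5 from 137357109 to 137501590 scored 1001, 904, 630 and 846 with 3 other peaks among them. The other run of 4, on chromosome 6 from 124690392 to 124854611, scored 960, 771, 825 and 1067 with 11 peaks in all.

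Close pairs of strong peaks were rare, 8 within 10 kb, which involved 16 members (2.14%). The closest was on chromosome 4, where peaks from 109692539 to 109693326 (score 592) and from 109694638 to 109695485 (723) stood 2.13 kb apart, in a region with only 3 other peaks within 500 kb of the first. A pair on chromosome 7 at 17477150 (820) and 17479662 (570) was 2.66 kb apart, and one on chromosome 11 at 98203412 (845) and 98206430 (707) 2.85 kb. The pair on chromosome 7 at 87484184 (1027) and 87487286 (2547) was 3.08 kb apart, and the pair on chromosome 11 at 53279723 (684) and 53283405 (1145) 3.78 kb. In the pair on chromosome 10 at 126945905 (696) and 126949678 (1773), also 3.78 kb apart, 1 other peak lay in between. Wider pairs were those on chromosome 11 at 69828547 (570) and 69834451 (655), 6.07 kb apart, and on chromosome 14 at 34018387 (1300) and 34026516 (2667), 8.36 kb apart. The next 2 pairs by distance exceeded 10 kb. They lay on chromosome 7 at 134119310 (601) and 134129607 (581), 10.5 kb apart, and on chromosome 11 at 79027029 (1578) and 79037801 (612), 10.6 kb apart.

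Within the 8 pairs closer than 10 kb the 2 scores differed by up to 2.55 times. The higher score was 1.56 times the lower at the median of these pairs, and 1.15 times at the least. Both scores reached 1000 in 2 of the 8, and over all members 34.8% scored 1000 or more. Score ratios of members outside pairs were not computed. No other peak lay between the partners in 6 of the 8. Another 20 pairs lay at 10 to 20 kb, with a median score ratio of 1.38, and no peak lay between 16 of them. These included the highest-scoring member of chromosome 5, 11.8 kb from a peak that scored 724, and that of chromosome 19, 19.8 kb from one that scored 934. In all, 56 members belonged to a pair within 20 kb. Their median score was 776.5 against 830 for the other members, their median width 917.5 against 936.5 bp, and a median of 22.5 against 17 peaks lay within 500 kb.

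Set against all pairs of autosomal peaks at the same distance, the share of strong pairs was lowest at up to 2 kb and at 5 to 10 kb and highest at 10 to 20 kb, on few pairs. If class were unrelated to position and to the number of close neighbours, 0.250% of pairs would join 2 strong peaks, the square of the strong share. Pairs of a strong and another peak would then make up 9.49%. They made up 6.17% at up to 2 kb, 7.84% at 10 to 15 kb and 8.15% at 15 to 20 kb. Strong peaks thus entered fewer close pairs, which the reference of 0.250% does not allow for. None of 1184 pairs at up to 2 kb did (interval up to 0.323%), against 6 of 1765 (0.340%, 0.156 to 0.740%) at 2 to 5 kb and 2 of 2511 (0.0796%, 0.0218 to 0.290%) at 5 to 10 kb. The counts were 10 of 2207 (0.453%, 0.246 to 0.832%) at 10 to 15 kb and 10 of 2024 (0.494%, 0.269 to 0.907%) at 15 to 20 kb. Of these bands, the interval leaves out the reference in that of 15 to 20 kb alone. Beyond 20 kb the share stayed between 0.215% and 0.284% up to 1 Mb. Counts below 20 kb are small, and the bands were set after earlier results of this list were known. Wide peaks also cannot have midpoints very close together, so the shortest band is limited by width itself.

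**Figure D3:**
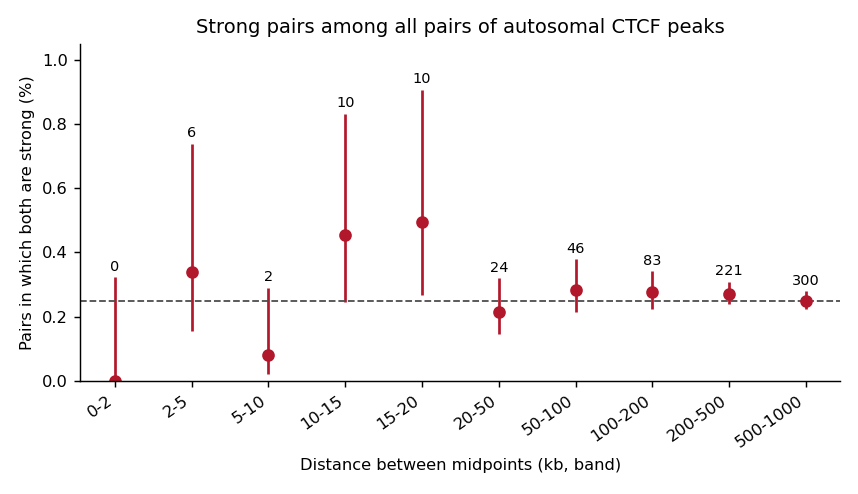
Share of all pairs of autosomal peaks in which both are strong, in percent, by band of midpoint distance. Points carry 95% Wilson intervals that treat pairs as independent, and numbers give the strong pairs. The dashed line is the square of the strong share (0.250%), which does not allow for the fewer close neighbours of strong peaks. The points at 10 to 15 and 15 to 20 kb stand highest, on 10 pairs each.

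Weak satellites, that is weak peaks within 10 kb, were less common around strong peaks than around other peaks. At least 1 was found for 168 members (22.5%, 19.6 to 25.6%) and for 28.3% (27.5 to 29.0%) of other peaks, a difference of -5.81 points (Newcombe 95% interval -8.75 to -2.60). The difference was smaller, -2.60 points, when only scores of 800 or more counted as strong, and -2.68 points when satellites were sought within 50 kb. Among the other peaks the share was 29.7% for weak and 26.7% for intermediate ones. At scores of 400 to 568, just under the bound, it was 22.7%, so a low share was not particular to the strong class. The mean number of satellites was 0.291 per strong and 0.382 per other peak. Of the 168 members, 126 had 1 satellite, 37 had 2 and 5 had 3 or more, with 4 at most, and in 13 the satellites lay on both sides. Intermediate neighbours were nearer to parity within 10 kb, 22.3% against 24.5%, but not within 2 kb, 4.01% against 6.64%. Weak neighbours within 2 kb stood at 5.61% against 8.10%. No peak of any score lay within 10 kb of 459 strong peaks (61.4%) and of 56.6% of other peaks.

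The satellites themselves looked like weak peaks elsewhere. The 214 satellites were 2.86% of the 7472 weak autosomal peaks. Their median score of 62 equalled that of all weak peaks, and their median width was 428 against 413 bp. The member scored 16.1 times its satellite at the median, from 6.43 to 150 times. Both classes were chosen by score, so their bounds alone set a floor to this ratio. It therefore describes the classes and is no separate evidence on the satellites. The median distance was 4.89 kb between midpoints and 3.89 kb between edges, and 37 of 218 links between a member and a satellite had under 1 kb between the edges. They lay about evenly to either side, with 103 of the 218 links toward higher coordinates.

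Around strong peaks the number of weak peaks was lower in most bands of distance, with smaller differences beyond 20 kb. Measured from the edges, there were 49.5 weak peaks per 1000 strong peaks within the first kb and 65.4 per 1000 other peaks. At 5 to 7.5 kb the values were 27.3 and 33.9 per kb, and at 15 to 20 kb 19.5 and 27.3. They were 23.4 and 25.1 at 20 to 30 kb, 23.7 and 23.8 at 30 to 40 kb and 21.9 and 24.1 at 40 to 50 kb. The exception was the band of 3 to 4 kb, with 41.4 around strong and 36.7 around other peaks.

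**Figure D4:**
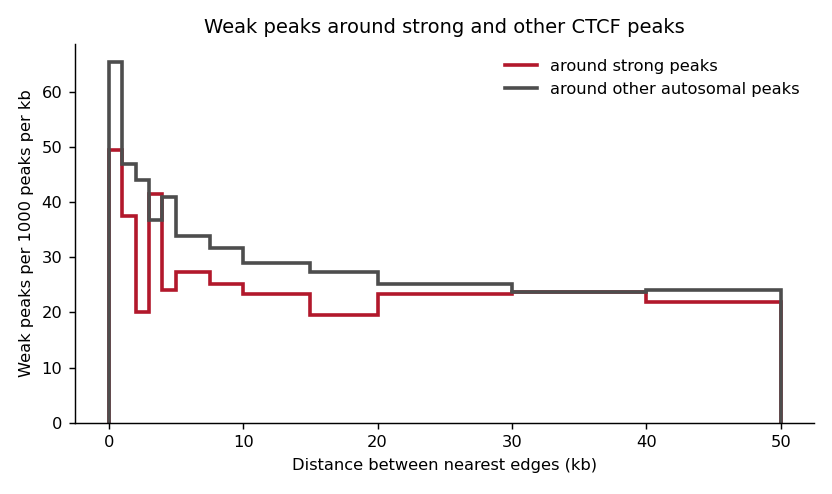
Weak peaks per 1000 peaks and per kb of distance between nearest edges, counted on both sides, around strong (red) and other autosomal peaks (grey). The red line lies below the grey one in all bands up to 30 kb other than 3 to 4 kb, the lines meet at 30 to 40 kb (23.7 and 23.8), and at 40 to 50 kb the red line is again lower (21.9 and 24.1).

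Among strong peaks the share with a satellite did not fall steadily with score. It was 19.2% (15.4 to 23.6%) at scores of 569 to 799, then 24.0% (18.8 to 30.03%) at 800 to 1199 and 27.3% (21.2 to 34.4%) at 1200 or more. Below the bound it declined from 33.2% at scores under 62 to 22.7% at 400 to 568. The intervals of the 3 strong bands overlap, and where the lowest value falls depends on the bands. In 4 groups of 187 members by score, from the lowest up, the shares were 21.4%, 16.6%, 24.1% and 27.8%. Width moved with it, as the share of members with a satellite was 16.5% at widths of 800 to 999 bp, 25.4% at 1000 to 1499 bp and 66.7% at 2000 bp or more. At equal width, other peaks had satellites more often in each band from 400 to 1999 bp, for example 33.5% at 800 to 999 bp. At 2000 bp or more the order was the opposite, 66.7% of 15 strong against 63.2% of 19 other peaks.

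At equal local density the difference kept its direction in all 5 classes. The intervals of strong and other peaks overlapped in every class except that of 10 to 19 peaks. With 10 to 19 peaks within 500 kb, 15.3% of strong and 26.0% of other peaks had a weak satellite, and with 5 to 9 around 9.43% and 16.2%. With 20 to 39 the shares were 34.3% and 36.6%, and with 40 to 80 they were 51.6% and 55.2%, so the difference was smallest in proportion in the 2 densest classes. With 0 to 4 around only 1 of 105 strong peaks (0.952%) had a satellite, against 5.11% of other peaks. Over all density classes strong peaks had a median width of 935 against 464 bp, and the part of width in this result was not tested.

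**Figure D5:**
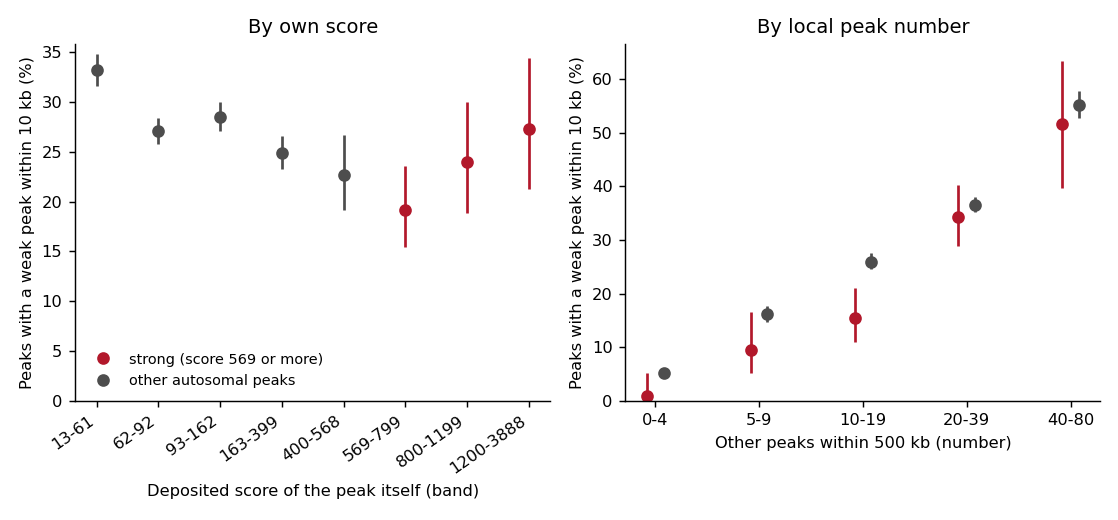
Share of peaks with a weak peak within 10 kb, in percent, by the peak's own score (left) and by the number of other peaks within 500 kb (right). Bars are 95% Wilson intervals. In these bands the lowest point on the left is that of 569 to 799 (19.2%). On the right the red points lie below the grey ones in all 5 classes, with overlapping intervals except at 10 to 19.

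The members with the most neighbours within 10 kb stood out from this. A peak on chromosome 8 from 122811755 to 122812716 (score 612) had 6 neighbours, none of them weak, which scored 121 to 409. The wide peak on chromosome 5 at 125747320 had 5, and 4 of these were weak. A peak on chromosome 4 from 140676475 to 140677075 (756) also had 5 with 4 weak, all 5 on its low-coordinate side, the nearest 2.26 kb away with a score of 74. Peaks on chromosome 12 at 8326380 (1381) and chromosome 5 at 134967544 (1029) had 4 each, of which 1 and 2 were weak. They had the highest scores of the 8 members with 4 neighbours. Among the remaining members with 4, that on chromosome 9 at 56737413 (576) had 4 weak ones, and those on chromosome 15 at 74366066 (640) and chromosome 17 at 27326433 (790) had 3 weak ones each. These 3 were named after their values were seen. The chromosome 12 peak had only 9 peaks within 500 kb, so its 4 close neighbours made up a large part of its surroundings.

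Strong peaks also occurred far from any other peak. No peak of any score lay within 100 kb of 80 members (10.7%, 8.68 to 13.1%), against 12.5% of other peaks, and none within 1 Mb of 4 members (0.535%), against 0.787%. The most remote, on chromosome 2 from 97306372 to 97307508 (score 916, 1137 bp), was 3.09 Mb from the nearest peak. It was followed by peaks on chromosome 17 from 17974904 to 17975700 (623), 2.27 Mb away, on chromosome 16 at 39984141 (593), 1.23 Mb, and on chromosome 3 at 26051641 (573), 1.03 Mb. The fifth, on chromosome 8 from 62984308 to 62985459 (1649), had as its nearest peak another strong one, 982 kb away with a score of 795.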

How the data were processed

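The series holds CTCF ChIP (2 libraries) and input (2 libraries) from mouse hippocampus. The tools named per the submitters' processing notes are cutadapt and MACS2 (2.0.10.20131216), with build mm9. Per the file headers, 1 list in narrowPeak style joins ChIP 1 and 2 against input 1 and 2, and the peak score is used as deposited by the authors. Not given in the sources used here are the aligner, treatment of duplicates, threshold, excluded regions and read depth. Starts were converted to positions counted from 1. Midpoint distances, counts within 500 kb, 1 Mb windows, Wilson, Newcombe and Poisson intervals were computed with Python 3.11.15, scipy 1.17.1 and statsmodels 0.14.6. The neighbour search was tested on simulated data. Peaks were named by a fixed rule: highest per chromosome, widest, narrowest, nearest to the bound, closest pairs, most and fewest neighbours, longest stretches and fullest windows. Not every peak picked by this rule is given above. The members, classes and bands were chosen with earlier results of these data known, and no test was run, since the score chose the members. No mm9 sequence or annotation was used, so peaks carry no sequence, motif or gene name. The class bound, distances, the definition of weak, joining of near peaks and the chromosomes included were varied.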

Additional observations from a re-analysis of the deposited data

Results flagged for a closer look

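Chromosome X, which lies outside the autosomal class, carried 8 peaks with scores of 569 or more among its 135, so strong peaks were also present in data not used above. Their median width was 806.5 bp, against 508 bp for the other X peaks. None of the 8 had a weak satellite within 10 kb and 1 had any peak that near. These shares were not computed for the other X peaks, so the counts have no background beside them. The highest of the 8, from 20395963 to 20397020, scored 1166, and the nearest strong peak was a median of 12.5 Mb away. Strong peaks made up 4.995% of autosomal peaks, and no comparison with autosomes was tested.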

How the results depend on the processing

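Of 36 alternatives, 27 were classed as unchanged, 8 as moved and 1 as turned. Not all of the 27 were close to the reported value. Among them the satellite difference, reported as -5.81 points, shrank to -2.60 at the least. The difference in strong neighbours, reported as 2.96 points, ran from 0.15 to 5.82. Lowering the bound to scores of 400 or more gave 1215 strong peaks, a median width excess of 388 bp and 21 pairs within 10 kb, and raising it to 800 gave 393 peaks, 595 bp and 2 pairs. The counts of peaks follow from the bound itself, and the cause of the other changes was not tested. Counted within 20 kb and 50 kb, pairs numbered 28 and 52. Within 10 kb there were 12 pairs with distances between edges, against the 8 reported between midpoints. The excess of strong neighbours around strong peaks was 2.96 points at 100 kb and turned to -0.77 points at 10 kb (Newcombe 95% interval -1.64 to 0.56), and the cause was not tested. It did not turn within 5 kb (1.60% against 1.43%) or within 10 kb between edges (3.21% against 3.06%), alternatives chosen after seeing the data. The lack of weak satellites kept its direction under all 9 alternatives, from -2.60 points at scores of 800 or more to -8.05 within 20 kb, with -2.68 within 50 kb. At 800 or more it was less than 50% of the reported difference. The difference in distal share, reported as 1.31 points (Newcombe 95% interval -2.29 to 4.77), ran from 0.74 to 1.64 points. No paired analysis was possible because 1 list pools all libraries. Leaving out a replicate and the search for the CTCF motif were not run, for want of values per library and of an mm9 sequence. Weak sites below the calling threshold cannot be seen, so a missing satellite is not evidence of absent binding.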
